A study of Mus musculus with 10 samples.

Results

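Dendritic cell genes were examined in whole livers of mice with experimental cholangitis. The 8 genes were Cd207, Cd209a, Batf3, Flt3, Zbtb46, Irf8, Irf4 and Siglech, found by symbol among the 59408 gene models of the normalised table. They were chosen with the values of these livers known, because Cd207 and Cd209a were lower and Batf3 higher in the autoimmune model than in untreated livers. In that comparison the 8 genes are therefore described without a test. All 10 livers came from wild-type C57BL/6 mice and were taken at day 35. The 3 PBC livers stood for autoimmune primary biliary cholangitis. These mice had 2-octynoic acid coupled to BSA (100 µg a dose) injected into the abdomen at day 0 in complete Freund's adjuvant, and at days 14 and 28 in incomplete Freund's adjuvant, with 2 µg of α-galactosylceramide into a vein at days 0 and 14. The 3 PSC livers stood for a primary sclerosing cholangitis that is not autoimmune. These mice ate 0.089% 3,5-diethoxycarbonyl-1,4-dihydrocollidine (DDC), which injures bile ducts, for 2 weeks, then regular food for 1 week, then DDC for 1 week. The 4 control mice were untreated and had neither adjuvant nor glycolipid, so the antigen, the adjuvant and the glycolipid cannot be told apart in the PBC livers. The sources used here give no sex or age. Poly(A) RNA of bulk tissue was sequenced, at a recovered depth of 38.3 to 95.4 M (mega) reads per liver. Values are reads normalised with DESeq2, as deposited, and errors are SD (n = 3 PBC, 3 PSC and 4 control livers) unless an SE is named. Nothing in the labels says how the mice of a group were housed, so p-values measure only the spread between these livers.

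Dendritic cells take up antigen, carry it to lymphoid tissue and present it to T cells. Their development depends on FLT3, the receptor of the cytokine FLT3 ligand, and the transcription factor ZBTB46 marks the conventional lineage. Conventional cells fall into cDC1, which need BATF3 and IRF8 and present antigen of dead cells to CD8 T cells, and cDC2, many of which depend on IRF4. Plasmacytoid dendritic cells make type I interferon and carry SIGLEC-H in the mouse. Langerin, the product of Cd207, is a C-type lectin best known from Langerhans cells of the epidermis and is also found on some mouse cDC1. Cd209a encodes a mouse relative of the human lectin DC-SIGN and is used as a gene of cDC2 and of dendritic cells that arise from monocytes. Several of these genes are not private to dendritic cells: monocytes, macrophages and B cells use Irf8, plasma cells and activated T cells use Irf4, and endothelium uses Zbtb46.

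Upstream sequences of 4 of the genes are shown as a description, and no result rests on them. Cd207 and Cd209a are the lectin genes of the 8 that differed most between the models. Irf8 and Flt3 were above every control liver in both models, as was Batf3, whose window is not printed. Each sequence is the 250 bases before the RefSeq start on GRCm38.p6 (also called mm10), 5′ to 3′, and capitals mark motif matches. RefSeq windows were found for all 8 genes, and those printed overlapped no GENCODE exon. RefSeq lists another start for Irf8, downstream of the one shown, and no searched motif matched its window (chr8:120738389-120738638).
Cd207, chr6:83677858-83678107, minus strand: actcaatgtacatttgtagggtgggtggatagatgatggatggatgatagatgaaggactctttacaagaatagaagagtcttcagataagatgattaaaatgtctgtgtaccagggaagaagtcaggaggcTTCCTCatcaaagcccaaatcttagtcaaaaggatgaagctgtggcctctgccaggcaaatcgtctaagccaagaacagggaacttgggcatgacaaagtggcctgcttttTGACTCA
Cd209a, chr8:3748985-3749234, minus strand: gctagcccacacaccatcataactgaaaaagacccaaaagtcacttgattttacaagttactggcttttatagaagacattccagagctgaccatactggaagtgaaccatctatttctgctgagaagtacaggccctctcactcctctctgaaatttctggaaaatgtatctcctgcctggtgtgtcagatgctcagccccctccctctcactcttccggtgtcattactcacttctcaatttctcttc
Irf8, chr8:120736108-120736357, plus strand: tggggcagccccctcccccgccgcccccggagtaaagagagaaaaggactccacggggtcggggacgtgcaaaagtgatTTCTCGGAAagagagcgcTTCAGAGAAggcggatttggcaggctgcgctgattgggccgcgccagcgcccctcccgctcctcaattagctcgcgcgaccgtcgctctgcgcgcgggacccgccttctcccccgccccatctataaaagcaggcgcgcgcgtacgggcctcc
Flt3, chr5:147400490-147400739, minus strand: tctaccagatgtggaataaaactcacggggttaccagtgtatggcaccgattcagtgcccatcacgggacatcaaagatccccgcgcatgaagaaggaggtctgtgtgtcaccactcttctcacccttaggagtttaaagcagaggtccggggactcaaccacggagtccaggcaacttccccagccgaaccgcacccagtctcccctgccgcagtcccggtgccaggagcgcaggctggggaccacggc
Positions count back from the start, with -1 the last base before it, and both strands were searched. The AP-1 motif TGANTCA, of the kind that BATF factors bind with JUN partners, matched the Cd207 window at -7 to -1, and 6.75% of 32851 RefSeq windows of this length held it. The ETS motif GAGGAA, of the kind that PU.1 binds, matched the Cd207 window on the opposite strand at -118 to -113, and 23.3% of windows held it. The STAT motif TTCNNNGAA matched the Irf8 window at -171 to -163 and at -153 to -145, and 7.02% of windows held it. The IRF repeat motif (of the kind that IRF factors bind in interferon-responsive genes), held by 2.98% of windows, matched none of the printed windows, and no searched motif matched those of Cd209a and Flt3. Among the windows not printed, the AP-1 motif also matched that of Zbtb46, and the STAT motif those of Batf3 and Siglech. The ETS motif also matched those of Batf3 and Irf4. Matches did not overlap one another, and a match is a description of letters only.

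In livers of the DDC model Irf8, a factor of cDC1 and plasmacytoid cells, rose. Batf3, Cd209a and Flt3 were above the controls in every liver, and Cd207, Siglech, Zbtb46 and Irf4 overlapped the controls. The control livers are those of the comparison on which the genes were chosen, so Cd207, Cd209a and Batf3, whose direction against these controls was part of the choice, are given here as a description. All 8 genes passed the filter on low values. Of the other 5, limma called 1 higher and 0 lower in PSC than in control livers. Over all 18390 genes tested, 8.25% were called higher and 6.48% lower, 14.7% in all. Every PSC liver was above every control liver for 2 of these 5 genes, against 15.9% of all genes tested (31.5% were apart in either direction). The median log2 fold change of the 5 genes was 0.65, against 0.06 over all genes tested. The test as planned, over all 8 genes, called 2 higher, the second being Batf3, whose call is not independent of the choice. In whole tissue, fewer cells of a type and less RNA per cell cannot be told apart.

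Batf3 (GSMG0001229, chromosome 1, 191097879 to 191108947), the factor that cDC1 need, had 415, 383 and 348 normalised reads in PSC livers 11, 13 and 14, against 161, 104, 255 and 97.2 in control livers 1 to 4. The groups did not overlap, and control 3 came nearest to the PSC livers. The log2 fold change of Batf3 was 1.41 (SE 0.31), and 1.23 to 1.69 with any single liver left out.

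Irf8 (GSMG0037911, chromosome 8, 120736356 to 120756690), a factor of cDC1 and plasmacytoid cells, had 788, 603 and 832 normalised reads in PSC livers, against 402, 289, 513 and 399.8 in control livers. Every PSC liver was above every control, PSC 13 by the least. Irf8 rose (log2 fold change 0.90, SE 0.25, limma adjusted p = 0.0298, by the Benjamini-Hochberg method over all genes tested). This call was lost without PSC 11 (adjusted p = 0.103), PSC 14 (0.137), control 1 (0.0631) or control 2 (0.0675), and with every library scaled to an equal total (0.0716).

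Flt3 (GSMG0031376, chromosome 5, 147330744 to 147400491), the receptor of dendritic cell precursors, had 31.0, 30.7 and 34.5 normalised reads in PSC livers, against 13.0, 12.8, 5.11 and 18.1 in control livers. The groups did not overlap, on 19 to 33 reads per PSC liver and 2 to 13 per control liver. The difference did not pass the test (log2 fold change 1.43, SE 0.47, limma adjusted p = 0.0559). It passed without PBC 8 (adjusted p = 0.0487), without control 4 (0.0478), with a pseudocount of 10 (0.0419), with quality weights (0.00727) and with DESeq2 (0.0468).

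Cd209a (GSMG0038038, chromosome 8, 3743395 to 3748984), the DC-SIGN relative, had 34.7, 74.4 and 88.7 normalised reads in PSC livers, against 16.8, 6.42, 17.9 and 22.2 in control livers. Every PSC liver was above every control, on 37 to 54 reads per PSC liver and 5 to 16 per control liver. The log2 fold change was 2.00 (SE 0.78).

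Cd207 (GSMG0033255, chromosome 6, 83671207 to 83677857), for langerin, had 795, 1194 and 1027 normalised reads in PSC livers, against 902, 501, 938 and 457 in control livers. PSC 13 and PSC 14 were above all controls, and PSC 11 lay among them. The log2 fold change was 0.58 (SE 0.39). Siglech (GSMG0034546, chromosome 7, 55768177 to 55778925), a receptor of plasmacytoid cells, had 46.0, 82.5 and 163 normalised reads in PSC livers, against 64.8, 35.9, 86.9 and 41.7 in control livers. Only PSC 14 was above the control range (log2 fold change 0.65, SE 0.49, limma adjusted p = 0.401).

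Zbtb46 (GSMG0024042, chromosome 2, 181388000 to 181459428), the marker of the conventional lineage, had 115, 134 and 141 normalised reads in PSC livers, against 218, 141, 271 and 219 in control livers. The highest PSC liver and the lowest control were level, and the other PSC livers were below all controls. The difference did not pass the test (log2 fold change -0.67, SE 0.37, limma adjusted p = 0.244), and it passed with quality weights (adjusted p = 0.0300). Irf4 (GSMG0009602, chromosome 13, 30749233 to 30766981), the factor of cDC2, had 39.4, 25.9 and 32.9 normalised reads in PSC livers, against 36.3, 30.8, 35.8 and 91.6 in control livers. The groups overlapped, and control 4 stood far above all the others (log2 fold change -0.43, SE 0.43, limma adjusted p = 0.543).

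**Figure D1:**
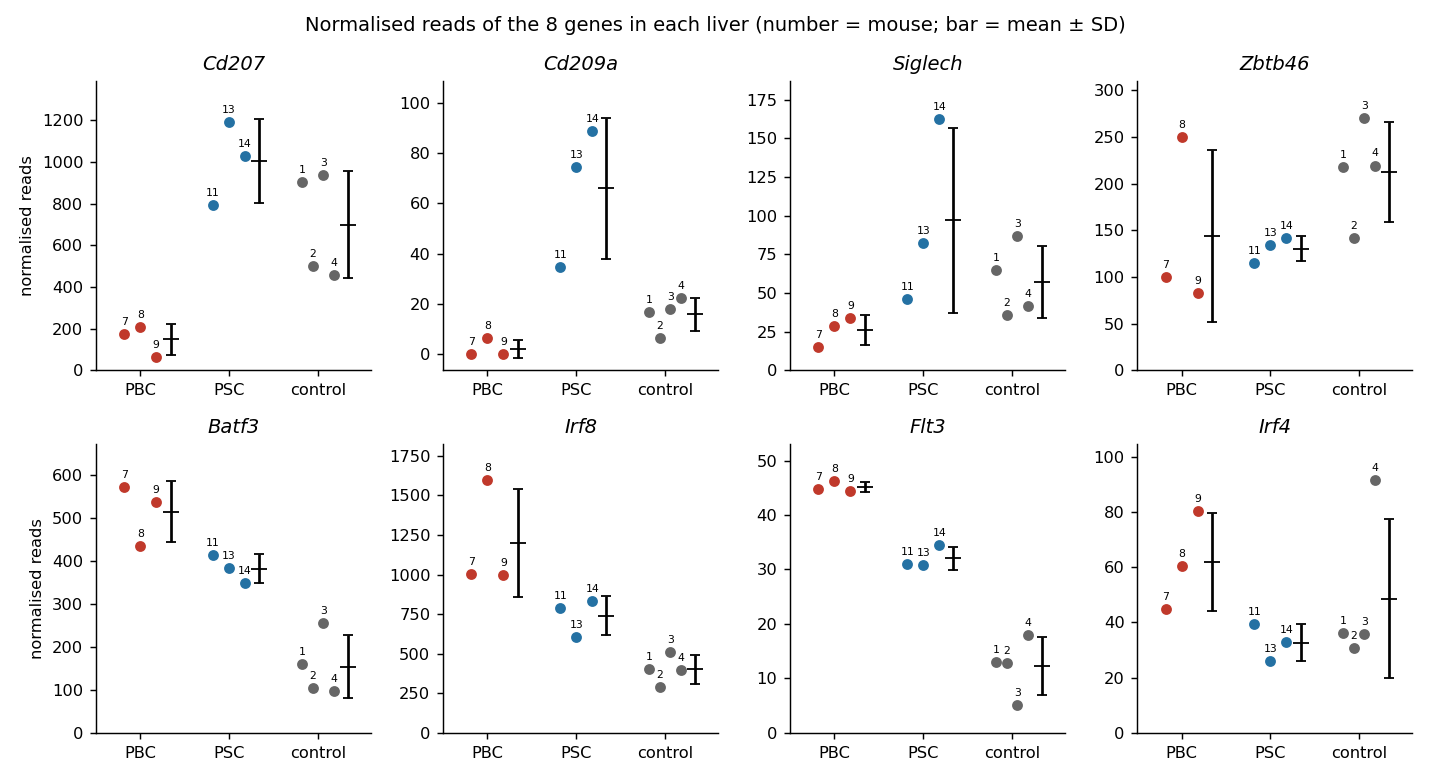
Normalised reads of each of the 8 genes (vertical axis, starting at 0) in PBC, PSC and control livers. Each point is a liver with its mouse number, and the bar beside the points is the mean ± SD. Cd207 and Cd209a are lowest in PBC livers, with Cd209a at 0 in PBC 7 and PBC 9, while Batf3, Irf8 and Flt3 are above every control in both models.

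In livers of the autoimmune model the genes moved apart: Cd207, Cd209a and Siglech were below every control liver, while Batf3, Irf8 and Flt3 were above every control liver. Thus 3 of 8 genes were higher and 3 of 8 lower in every PBC liver, where 12.7% and 6.89% of all genes tested were so placed, 19.6% in all. The genes were chosen on this comparison, so nothing is read from those counts. limma called 9.94% of all genes tested here.

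Cd207 had 172, 209 and 63.5 normalised reads in PBC livers 7, 8 and 9, against 902, 501, 938 and 457 in control livers. PBC 9 was the lowest of all livers, and the groups were far apart. The mean was 148 ± 75.5 in PBC livers and 699 ± 256 in control livers, a ratio of 0.212. Cd209a had 0, 6.37 and 0 normalised reads in PBC livers, against 16.8, 6.42, 17.9 and 22.2 in control livers. Its whole PBC signal was 4 reads in PBC 8, against 41 reads over the controls, and PBC 8 lay just under control 2. The size of this difference depended on the pseudocount: the log2 fold change was -3.00, with -1.09 at a pseudocount of 10 and -5.18 at 0.1, and it was -3.96 without PBC 8.

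Siglech had 14.9, 28.7 and 33.9 normalised reads in PBC livers, against 64.8, 35.9, 86.9 and 41.7 in control livers. PBC 9 lay close under control 2, and the mean was 25.8 ± 9.79 in PBC livers and 57.3 ± 23.3 in control livers. Cd207, Cd209a and Siglech are single genes linked to Langerhans cells, cDC2 and plasmacytoid cells, and do not stand for these cells. In PBC livers 4 of 10 listed plasmacytoid cell genes tested rose and 1 fell. Of 9 listed cDC2 genes 2 rose and 0 fell, and of 6 listed Langerhans cell genes 2 rose and 0 fell.

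Batf3 had 572, 435 and 537 normalised reads in PBC livers, against 161, 104, 255 and 97.2 in control livers, a ratio of means of 3.34. Irf8 had 1005, 1595 and 999 normalised reads in PBC livers, against 402, 289, 513 and 399.8 in control livers, a ratio of means of 2.99. PBC 7 was the highest for Batf3 and PBC 8 for Irf8, and no PBC liver overlapped the controls. Flt3 had 44.8, 46.2 and 44.4 normalised reads in PBC livers, against 13.0, 12.8, 5.11 and 18.1 in control livers, a ratio of means of 3.69. The PBC livers were nearly level for Flt3, on 18 to 29 reads each.

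Zbtb46 and Irf4 overlapped the controls. Zbtb46 had 99.5, 250.1 and 82.5 normalised reads in PBC livers, against 218, 141, 271 and 219 in control livers. PBC 8 was within the control range and the other PBC livers were below it. Irf4 had 44.8, 60.5 and 80.4 normalised reads in PBC livers, against 36.3, 30.8, 35.8 and 91.6 in control livers. All PBC livers were above controls 1 to 3 and below control 4. The mean of Zbtb46 was 144 ± 92.3 in PBC, 130.3 ± 13.4 in PSC and 212 ± 53.4 in control livers. This marker of the conventional lineage, which endothelium also uses, was thus not higher in either model. For Batf3 and Irf8 every liver of both models was above every control.

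**Figure D2:**
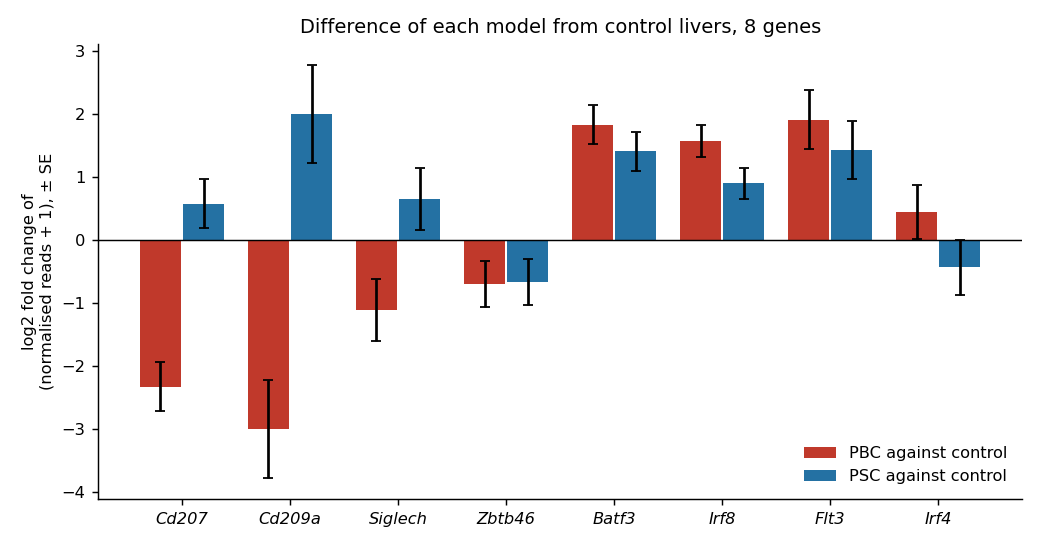
Log2 fold change of normalised reads plus 1 (vertical axis) for each of the 8 genes, PBC against control beside PSC against control. Bars start at 0 and error bars are SE from limma. Batf3, Irf8 and Flt3 are positive in both comparisons, and Zbtb46 is negative in both. Cd207, Cd209a and Siglech are negative for PBC and positive for PSC. In PSC livers limma called Irf8 and Batf3 higher and none of the others, and the Batf3 call is not independent of the choice. The comparisons share the 4 control livers.

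Fold changes of PBC against PSC livers leave the controls out, but SE and p use a spread estimated over all 10 livers. The PBC livers are also those on which the genes were chosen. Values of the 3 genes named in that choice are therefore given as a description. Cd207 averaged 148 ± 75.5 in PBC and 1005 ± 200.03 in PSC livers, a ratio of 0.147. Cd209a averaged 2.12 ± 3.68 in PBC and 65.9 ± 28.0 in PSC livers, from 4 reads in all and 137 in all. Batf3 averaged 515 ± 71.3 in PBC and 382 ± 33.1 in PSC livers. For all 3 genes the livers of the models did not overlap, with the lectins lower and Batf3 higher in PBC.

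Of the other 5 genes, limma called 0 between PBC and PSC livers, against 2.24% of all genes tested (1.11% higher and 1.13% lower in PBC). An unadjusted p under 0.05 was found for 2 of the 5, edgeR called 0 and DESeq2 called 1. The gene called by DESeq2 was Siglech, which was lower in every PBC liver than in any PSC liver (log2 fold change -1.76, SE 0.52, limma adjusted p = 0.106; adjusted p = 0.0168 with DESeq2 and 0.0285 with quality weights). Irf8 was higher in every PBC liver without passing (log2 fold change 0.67, SE 0.27, limma adjusted p = 0.203). Irf4 was also higher in every PBC liver without passing (log2 fold change 0.88, SE 0.46, limma adjusted p = 0.325). Flt3 likewise did not overlap (log2 fold change 0.48, SE 0.50, limma adjusted p = 0.620). So 3 of the 5 were higher in every PBC liver and 1 was lower, where 14.6% and 12.6% of all genes tested were so placed, 27.2% in all. Zbtb46 overlapped (log2 fold change -0.03, SE 0.39, limma adjusted p = 0.976), and its sign was positive with edgeR (0.17), with DESeq2 (0.12), and without PBC 7 (0.15), PBC 9 (0.28) or PSC 14 (0.03).

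Levels were compared between genes as normalised reads per kilobase of GENCODE exon. In control livers Cd207 stood at the top with a level of 459 ± 168 per kilobase, apart from all the others. Batf3 at 96.6 ± 45.8 and Irf8 at 56.8 ± 13.0 per kilobase overlapped each other. Next came Zbtb46 at 24.9 ± 6.28, Siglech at 16.9 ± 6.89, Cd209a at 10.005 ± 4.23 and Irf4 at 9.92 ± 5.87 per kilobase, each overlapping its neighbour, and Flt3 was apart at the bottom at 1.98 ± 0.864. In PSC livers the order began with Cd207 at 661 ± 131, Batf3 at 239 ± 20.7 and Irf8 at 105 ± 17.2 per kilobase, all apart. Cd209a came next at 41.7 ± 17.7 per kilobase and overlapped Siglech at 28.7 ± 17.7, which overlapped Zbtb46 at 15.3 ± 1.58. Irf4 at 6.67 ± 1.38 and Flt3 at 5.19 ± 0.344 per kilobase overlapped at the bottom. In PBC livers Batf3 was at the top at 322 ± 44.6 per kilobase, with Irf8 at 170.0 ± 48.5 and Cd207 at 97.2 ± 49.6 after it, all apart. Zbtb46 at 16.9 ± 10.8, Irf4 at 12.6 ± 3.64, Siglech at 7.63 ± 2.89 and Flt3 at 7.31 ± 0.152 per kilobase each overlapped the next, and Cd209a was apart at the bottom at 1.34 ± 2.32. Langerin was thus at the top of the order in PSC and control livers and below Batf3 and Irf8 in PBC livers.

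Livers of a group also differed among themselves. Control 3 was the highest control for 5 of the 8 genes (Cd207, Batf3, Zbtb46, Irf8 and Siglech) and the lowest for Flt3, and it was the library with the lowest depth. Control 2 was the lowest control for 5 genes (Cd209a, Zbtb46, Irf8, Irf4 and Siglech). PBC 8 was the highest PBC liver for 5 genes (Cd207, Cd209a, Flt3, Zbtb46 and Irf8), and PSC 14 the highest PSC liver for 5 (Cd209a, Flt3, Zbtb46, Irf8 and Siglech).

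Other genes of dendritic cells were taken from lists of 82 genes, chosen by role with earlier results of these data known, of which 74 passed the filter. In PBC livers 29 of the 74 rose and 1 fell, against 7.6% and 2.34% of all genes tested, and the median log2 fold change was 0.77, against 0.01 over all genes tested. In PSC livers 18 rose and 4 fell, against 8.25% and 6.48% of all genes tested, and the median was 0.51, against 0.06. The 4 that fell included 3 of the Cd209 family. In PBC against PSC livers 1 was higher and 4 were lower, against 1.11% and 1.13% of all genes tested. The median there was 0.29, against 0.02. The PBC count became 15 higher and 1 lower without PBC 9, 24 and 6 without PBC 8, 18 and 1 without control 1, 31 and 5 with quality weights, and 12 and 0 in a fit of only these groups. Over all genes tested, 1398 rose and 430 fell in PBC livers, against 1818 and 1574 without PBC 8 and 684 and 65 without PBC 9. The PSC count became 13 higher and 0 lower without PSC 11, and 12 and 1 without PSC 13 or without PSC 14. The count between the models became 1 higher and 2 lower without PBC 7, and 0 and 1 without PSC 13 or without PSC 14.

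**Figure D3:**
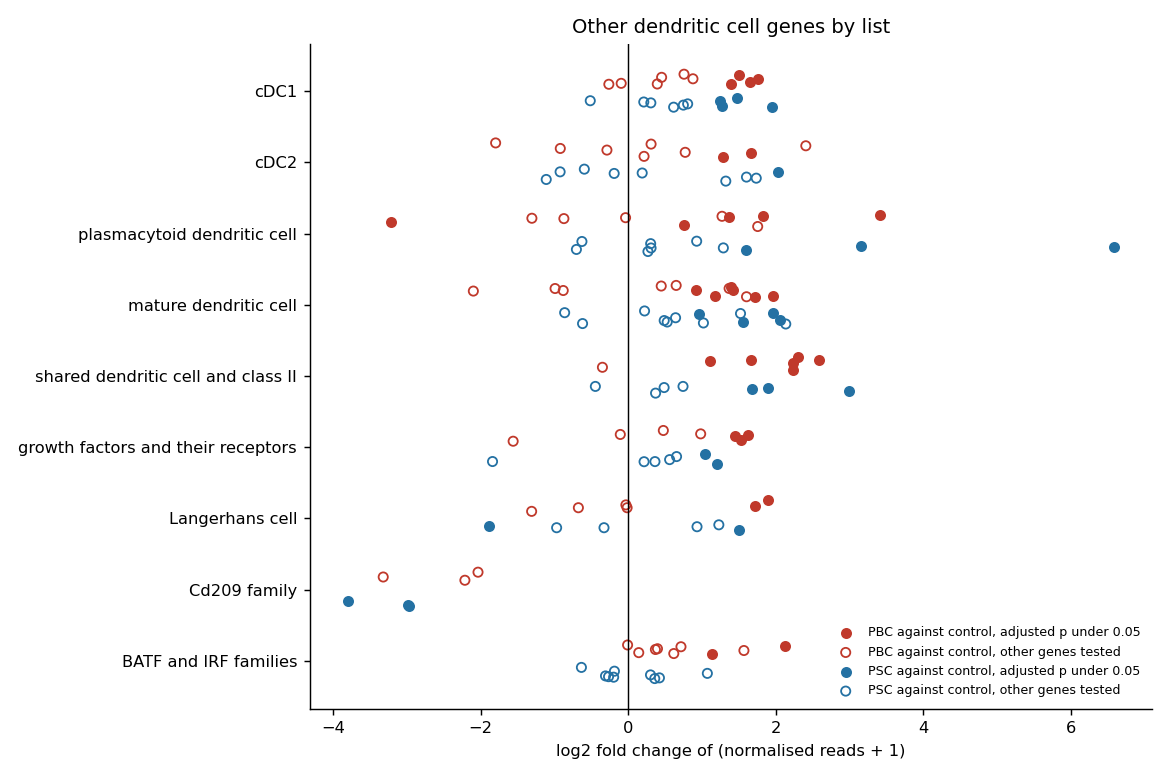
Log2 fold change of normalised reads plus 1 (horizontal axis) for each tested gene of the lists of other dendritic cell genes, PBC against control above PSC against control in each row. Filled points passed limma at an adjusted p under 0.05 and open points did not. Most filled points lie right of 0, and the 3 tested genes of the Cd209 family lie left of 0 in both models, filled for PSC.

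Of 10 cDC1 genes, 4 rose and 0 fell in PBC livers, and 4 rose and 0 fell in PSC livers, with a median log2 fold change of 0.82 in PBC and 0.78 in PSC. Wdfy4, which mouse cDC1 need to cross-present, averaged 320.4 ± 93.0 in PBC, 259 ± 52.0 in PSC and 94.1 ± 26.9 in control livers. It rose in PBC (log2 fold change 1.76, SE 0.30, limma adjusted p = 0.00256) and in PSC livers (log2 fold change 1.47, SE 0.30, limma adjusted p = 0.00601). Xcr1, the chemokine receptor that marks cDC1, averaged 131 ± 58.4 in PBC, 115 ± 28.7 in PSC and 47.5 ± 14.6 in control livers, and rose in PBC (log2 fold change 1.40, SE 0.37, limma adjusted p = 0.0329) and in PSC livers (log2 fold change 1.27, SE 0.37, limma adjusted p = 0.0373). Clec9a, a receptor for dead cells, averaged 99.2 ± 13.1 in PBC, 54.7 ± 2.71 in PSC and 33.3 ± 14.6 in control livers, and rose in PBC livers (log2 fold change 1.65, SE 0.39, limma adjusted p = 0.0189). These cDC1 genes thus rose in PBC livers, where Cd207 was lowest. Nfil3, a factor of cDC1 development that many other cells use, rose in PBC (log2 fold change 1.51, SE 0.36, limma adjusted p = 0.0187) and in PSC livers (log2 fold change 1.25, SE 0.36, limma adjusted p = 0.0335). Cd24a, also a gene of bile duct epithelium, averaged 969 ± 321 in PBC, 2752 ± 444 in PSC and 728 ± 199.5 in control livers. It rose in PSC livers (log2 fold change 1.94, SE 0.27, limma adjusted p = 0.000653) and was lower in PBC than in PSC livers (log2 fold change -1.55, SE 0.29, limma adjusted p = 0.0148).

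Some of these calls were lost when a liver was left out or another setting was used, and why was not tested. Without PBC 9 the log2 fold change of Clec9a in PBC was 1.66, against 1.65 with all livers. That of Xcr1 in PBC was 1.06 without PBC 8, against 1.40 with all livers. The Xcr1 call in PBC was lost without PBC 8, PBC 9, PSC 14, control 1 or control 2, or with no filter, equal totals or a fit of only these groups (adjusted p 0.0528 to 0.0960), and the one in PSC without PSC 11, PSC 13, PSC 14, control 1 or control 2, or with no filter or equal totals (adjusted p 0.0670 to 0.148). The Clec9a call was lost without PBC 9, or with a fit of only these groups (adjusted p 0.0615 to 0.0649). The Nfil3 call in PBC was lost without PBC 9, or with a fit of only these groups (adjusted p 0.0547 to 0.101), and the one in PSC without PSC 11, PSC 13, PSC 14, control 3 or control 4, or with equal totals or edgeR (adjusted p 0.0572 to 0.130). The Cd24a call between the models was lost without PBC 7, PSC 13 or PSC 14 (adjusted p 0.0543 to 0.0821).

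Of 9 cDC2 genes, 2 rose in PBC and 1 rose in PSC livers, and 0 fell in either. Clec10a, a lectin that binds galactose-type sugars, averaged 97.6 ± 29.1 in PBC, 161 ± 18.5 in PSC and 38.8 ± 5.85 in control livers. It rose in PBC (log2 fold change 1.28, SE 0.30, limma adjusted p = 0.0194) and in PSC livers (log2 fold change 2.03, SE 0.30, limma adjusted p = 0.00107), so this lectin of cDC2 was higher in PBC livers in which Cd209a was at or near 0. Sirpa, which macrophages share, averaged 582 ± 448 in PBC, 391 ± 106 in PSC and 169 ± 87.4 in control livers, and rose in PBC livers (log2 fold change 1.67, SE 0.47, limma adjusted p = 0.0394). The Clec10a call in PBC was lost without PBC 9 or control 1, or with a fit of only these groups (adjusted p 0.0523 to 0.0981). The Sirpa call was lost without PBC 8, PBC 9, PSC 11, PSC 13, PSC 14, control 1, control 2 or control 3, or with TMM scaling, equal totals or a fit of only these groups (adjusted p 0.0509 to 0.0998), and its log2 fold change was 1.08 without PBC 8 and 1.05 with quality weights.

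Of 10 plasmacytoid cell genes tested, 4 rose and 1 fell in PBC livers, and 3 rose and 0 fell in PSC livers. Those that rose are used by many other cells. Ly6d, also a gene of lymphoid precursors and epithelium, averaged 1607 ± 1333 in PBC, 35674 ± 8576 in PSC and 412 ± 259.8 in control livers. It rose in PSC (log2 fold change 6.59, SE 0.48, limma adjusted p = 3.60e-06) and in PBC livers (log2 fold change 1.82, SE 0.48, limma adjusted p = 0.0319), where PBC 8 lay within the control range, and was lower in PBC than in PSC livers (log2 fold change -4.76, SE 0.52, limma adjusted p = 0.000459). Tlr7, a sensor of RNA, averaged 674 ± 117 in PBC, 800.0 ± 165 in PSC and 268 ± 84.3 in control livers, and rose in PBC (log2 fold change 1.36, SE 0.26, limma adjusted p = 0.00568) and in PSC livers (log2 fold change 1.60, SE 0.26, limma adjusted p = 0.00176). Bst2, which interferon induces in many cells, rose in PBC livers (log2 fold change 0.76, SE 0.20, limma adjusted p = 0.0308). Tlr9, a sensor of DNA, had 34.8, 66.9 and 33.9 normalised reads in PBC and 46.9, 42.1 and 23.0 in PSC livers, against 13.0, 0, 0 and 19.4 in control livers. It rose in PBC (log2 fold change 3.42, SE 1.00, limma adjusted p = 0.0461) and in PSC livers (log2 fold change 3.16, SE 1.00, limma adjusted p = 0.0493).

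Klk1, a tissue kallikrein listed among plasmacytoid genes of the mouse, was the gene that fell. It had 0, 6.37 and 0 normalised reads in PBC, 21.6, 30.7 and 55.9 in PSC and 14.3, 16.7, 25.6 and 13.9 in control livers. It was at 0 in the same PBC livers as Cd209a, and lower in PBC than in control (log2 fold change -3.21, SE 0.76, limma adjusted p = 0.0191) and in PSC livers (log2 fold change -4.14, SE 0.81, limma adjusted p = 0.0184). The Klk1 call against control was lost without PBC 7 or PBC 9, or with a fit of only these groups or edgeR (adjusted p 0.0648 to 0.0779), and that against PSC without PBC 7, PSC 13 or PSC 14, or with a fit of only these groups (adjusted p 0.0543 to 0.125). Without PBC 8 the Klk1 log2 fold change was -4.18 against control and -5.10 against PSC, and a pseudocount of 10 gave -1.21 and -1.90. The Ly6d call in PBC was lost without PBC 7, PBC 9, control 1, control 2 or control 4, or with a fit of only these groups (adjusted p 0.0603 to 0.147), and without PBC 9 its log2 fold change was 1.18 against control and -5.41 against PSC. The Bst2 call was lost without PBC 7, PBC 9, PSC 13, PSC 14, control 1 or control 4, or with no filter or a fit of only these groups (adjusted p 0.0511 to 0.152). The Tlr9 call in PBC was lost in 15 settings, among them leaving out any PBC or PSC liver, control 2 or control 3, and quality weights (adjusted p 0.0515 to 0.116), and its log2 fold change was 2.74 without control 2 or without control 3, 4.01 without control 1, 4.19 without control 4, and 1.72 with a pseudocount of 10. The Tlr9 call in PSC was lost without PBC 7, PBC 9, PSC 11, PSC 13, PSC 14, control 2 or control 3, or with a pseudocount of 0.1, no filter, TMM scaling, equal totals, a fit of only these groups or edgeR (adjusted p 0.0530 to 0.147), and its log2 fold change was 2.48 without control 2 or without control 3, 3.75 without control 1, 3.93 without control 4, and 1.51 with a pseudocount of 10.

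Of 13 genes of mature dendritic cells tested, 6 rose in PBC and 4 rose in PSC livers, and 0 fell in either. The 13 include Il4i1, which is merged with Nup62 and Gm21948 in one gene model and was not called. Relb, a factor of the NF-κB family, averaged 682 ± 229 in PBC, 502 ± 84.2 in PSC and 171 ± 36.1 in control livers, and rose in PBC (log2 fold change 1.97, SE 0.27, limma adjusted p = 0.000692) and in PSC livers (log2 fold change 1.56, SE 0.27, limma adjusted p = 0.00260). Ccr7, the receptor that leads dendritic cells and T cells to lymph nodes, averaged 347 ± 68.4 in PBC, 152 ± 32.8 in PSC and 138 ± 66.6 in control livers, and rose in PBC livers (log2 fold change 1.42, SE 0.34, limma adjusted p = 0.0196). Fscn1, an actin bundler, rose in PBC (log2 fold change 1.18, SE 0.30, limma adjusted p = 0.0251) and in PSC livers (log2 fold change 0.96, SE 0.30, limma adjusted p = 0.0455). Cd86, a costimulatory ligand, rose in PBC livers (log2 fold change 0.93, SE 0.22, limma adjusted p = 0.0187). Cd83, a marker of maturation, averaged 1569.9 ± 30.3 in PBC, 2334 ± 83.2 in PSC and 701 ± 492 in control livers, and rose in PBC (log2 fold change 1.40, SE 0.37, limma adjusted p = 0.0321) and in PSC livers (log2 fold change 1.97, SE 0.37, limma adjusted p = 0.00440). Cacnb3, a calcium channel subunit, rose in PSC livers (log2 fold change 2.06, SE 0.61, limma adjusted p = 0.0385). The Ccr7 call was lost without PBC 9 or control 1, or with a fit of only these groups (adjusted p 0.0534 to 0.0870), and the Cd86 call without PBC 7 or control 1, or with equal totals or a fit of only these groups (adjusted p 0.0511 to 0.0706). The Fscn1 call in PBC was lost without PBC 9, or with equal totals or a fit of only these groups (adjusted p 0.0602 to 0.105), and the one in PSC without PBC 9, PSC 11, PSC 13, PSC 14, control 1, control 2 or control 3, or with a pseudocount of 0.1, no filter, TMM scaling, equal totals or edgeR (adjusted p 0.0510 to 0.206). The Cd83 call in PBC was lost without PBC 7, PBC 9, control 1, control 2 or control 4, or with equal totals, a fit of only these groups or edgeR (adjusted p 0.0512 to 0.105). The Cacnb3 call was lost without PSC 11, PSC 13, PSC 14, control 1, control 3 or control 4, or with no filter or equal totals (adjusted p 0.0535 to 0.154).

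Of 7 genes shared by dendritic cells and other antigen-presenting cells, 6 rose in PBC and 3 rose in PSC livers, with a median log2 fold change of 2.23 in PBC and 0.74 in PSC, and 0 fell in either. Itgax, for CD11c, averaged 211 ± 98.1 in PBC, 316 ± 54.7 in PSC and 40.2 ± 12.6 in control livers, and rose in PBC (log2 fold change 2.30, SE 0.38, limma adjusted p = 0.00214) and in PSC livers (log2 fold change 2.99, SE 0.38, limma adjusted p = 0.000294). Cd74, the invariant chain of class II, rose in PBC (log2 fold change 2.58, SE 0.21, limma adjusted p = 2.26e-05) and in PSC livers (log2 fold change 1.68, SE 0.21, limma adjusted p = 0.000316). H2-Aa, a class II chain, rose in PBC (log2 fold change 2.23, SE 0.24, limma adjusted p = 0.000150) and in PSC livers (log2 fold change 1.89, SE 0.24, limma adjusted p = 0.000325). Ciita, the master regulator of class II, averaged 219 ± 68.4 in PBC, 78.7 ± 29.1 in PSC and 49.1 ± 26.1 in control livers, and rose in PBC livers (log2 fold change 2.24, SE 0.44, limma adjusted p = 0.00708). B cells and macrophages express these genes as well.

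Of 7 growth factor and receptor genes tested, 3 rose in PBC and 2 rose in PSC livers, and 0 fell in either. Csf2ra, a chain of the GM-CSF receptor, averaged 527 ± 73.7 in PBC, 419 ± 45.3 in PSC and 181 ± 22.5 in control livers, and rose in PBC (log2 fold change 1.54, SE 0.21, limma adjusted p = 0.000772) and in PSC livers (log2 fold change 1.21, SE 0.21, limma adjusted p = 0.00297). Tgfb1, the cytokine that Langerhans cells need, averaged 1032 ± 118 in PBC, 781 ± 113 in PSC and 381 ± 72.7 in control livers, and rose in PBC (log2 fold change 1.45, SE 0.21, limma adjusted p = 0.00102) and in PSC livers (log2 fold change 1.04, SE 0.21, limma adjusted p = 0.00652). Csf2rb, the chain shared with other receptors, rose in PBC livers (log2 fold change 1.62, SE 0.43, limma adjusted p = 0.0310), and this call was lost without PBC 8, PBC 9, control 1, control 2 or control 3, or with equal totals or a fit of only these groups (adjusted p 0.0577 to 0.0954). The ligand of FLT3 could not be read, since the table merges Flt3l with the ribosomal protein gene Rpl13a in one model. That merged gene model is counted among the 7 tested and was not called in PBC or PSC livers.

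Of 6 genes of Langerhans cells, 2 rose and 0 fell in PBC livers, and 1 rose and 1 fell in PSC livers. Runx3, a factor that Langerhans cells need, rose in PBC livers (log2 fold change 1.72, SE 0.40, limma adjusted p = 0.0173), where Cd207 was lowest. Csf1r, the receptor of CSF1 and IL-34 and a gene of all macrophages, averaged 9203 ± 3059.9 in PBC, 4656 ± 1260.0 in PSC and 2560.1 ± 1174 in control livers, and rose in PBC livers (log2 fold change 1.90, SE 0.32, limma adjusted p = 0.00275). Epcam, which bile duct epithelium shares, averaged 121 ± 47.3 in PBC, 531 ± 144 in PSC and 189.8 ± 66.0 in control livers; it rose in PSC livers (log2 fold change 1.5, SE 0.35, limma adjusted p = 0.0144) and was lower in PBC than in PSC livers (log2 fold change -2.17, SE 0.38, limma adjusted p = 0.00913). Tgfbr1, a receptor chain of TGF-β, averaged 211 ± 229 in PBC, 94.1 ± 15.4 in PSC and 352 ± 60.5 in control livers, and fell in PSC livers (log2 fold change -1.89, SE 0.53, limma adjusted p = 0.0304). The Runx3 call was lost without PBC 7, or with a fit of only these groups (adjusted p 0.0561 to 0.0725), and the Tgfbr1 call without PSC 11, PSC 13, PSC 14, control 1, control 2 or control 4, or with equal totals (adjusted p 0.0540 to 0.107). The Epcam call in PSC was lost without PSC 13 or PSC 14 (adjusted p 0.0619 to 0.0857), and the one between the models without PSC 13 or PSC 14 (adjusted p 0.0569 to 0.0699).

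Of 9 other genes of the BATF and IRF families, 2 rose and 0 fell in PBC livers, and limma called 0 in PSC livers, where 0 had an unadjusted p under 0.05 and edgeR and DESeq2 called 0. Batf2, a relative of Batf3 that interferon induces, averaged 247 ± 30.3 in PBC, 72.2 ± 27.7 in PSC and 59.0 ± 21.6 in control livers. It rose in PBC livers (log2 fold change 2.12, SE 0.36, limma adjusted p = 0.00299) and was higher in PBC than in PSC livers (log2 fold change 1.82, SE 0.39, limma adjusted p = 0.0286), and the call between the models was lost without PBC 7, PBC 8, PBC 9, PSC 13 or PSC 14, or with equal totals (adjusted p 0.0526 to 0.151). Irf7, the regulator of type I interferon, averaged 21907 ± 2286 in PBC, 12859.7 ± 2348 in PSC and 10068 ± 2167 in control livers, and rose in PBC livers (log2 fold change 1.14, SE 0.21, limma adjusted p = 0.00437).

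Tested relatives of Cd209a went the other way in the DDC model, but the filter partly decided which were tested. Of 6 other genes of the Cd209 family 3 passed the filter, and these 3 fell in PSC livers. Cd209b and Cd209g were under 10 in every PSC liver and passed mainly on control livers, so nothing is read from this count. Of the 3 too low to be tested, Cd209d had 8.44, 12.9 and 27.9 normalised reads in PSC livers, against 2.59, 2.57, 5.11 and 0 in control livers, and Cd209c and Cd209e were at 0 in most livers. Cd209b, known from macrophages of the spleen marginal zone, had 1.88, 3.23 and 3.29 normalised reads in PSC livers, against 14.3, 35.9, 46.0 and 27.8 in control livers, and fell (log2 fold change -2.98, SE 0.73, limma adjusted p = 0.0169). Cd209f had 6.57, 4.85 and 31.2 normalised reads in PSC livers, against 60.9, 61.6, 212 and 73.6 in control livers, and fell (log2 fold change -2.98, SE 0.88, limma adjusted p = 0.0385). Cd209g had 0, 0 and 3.29 normalised reads in PSC livers, against 40.2, 19.3, 38.3 and 6.94 in control livers, and fell (log2 fold change -3.80, SE 1.09, limma adjusted p = 0.0338). Every PSC liver was below every control for these 3 genes, as for 15.6% of all genes tested. For Cd209a every PSC liver was above every control, as for 15.9% of all genes tested. The Cd209b call was lost without PSC 11 or PSC 14 (adjusted p 0.0568 to 0.0638), the Cd209f call without PSC 11, PSC 13, control 1, control 2, control 3 or control 4, or with a pseudocount of 0.1 or no filter (adjusted p 0.0538 to 0.137) and the Cd209g call without PSC 11, PSC 13, PSC 14, control 1, control 2 or control 3, or with a pseudocount of 0.1 (adjusted p 0.0522 to 0.110). Without PSC 14 the log2 fold change was -3.73 for Cd209f and -4.50 for Cd209g, and with a pseudocount of 10 it was -1.62 for Cd209b, -2.19 for Cd209f and -1.59 for Cd209g. In PBC livers limma called 0 of the 3, with log2 fold changes of -2.03 for Cd209b, -2.21 for Cd209f and -3.32 for Cd209g, an unadjusted p under 0.05 for all 3, and 0 called by edgeR and by DESeq2. These genes are close copies of one another, and the sources used here do not say how the counting treated reads that match several genes, so their levels are uncertain, Cd209a included.

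The genes most like each of the 3 genes of the choice were found by Pearson's r of log2(value + 1) over the 10 libraries, among 13443 tested genes with an established symbol. For Cd207 they included Smarcd3 (r = 0.96), Tmem216 (0.93), Ormdl1 (0.93) and Zfp354a (0.92). For Cd209a they were Vta1 (r = 0.97), Klk1 (0.95), Rab12 (0.95), Lztr1 (0.95) and Laptm4a (0.94). For Batf3 they were Pilrb1 (r = 0.98), Kcng2 (0.98), Gsdmd (0.97), Fcer1g (0.97) and Cd52 (0.97). The points are the same 10 libraries in 3 groups, so these values describe group differences as well as differences between livers. None of the other 7 genes was among the 5 most like Cd207, Cd209a or Batf3.

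Markers of other cell types moved with the groups, and their part in the results above was not tested. Summed markers of monocytes and macrophages, which share Irf8, Itgax and Csf1r, were 14127 to 18170.0 in PBC, 16025 to 19435 in PSC and 4951 to 8256 in control livers, and 6 of 8 rose in PBC and 8 of 8 in PSC livers. Those of Kupffer cells were 79201 to 134236 in PBC, 47141 to 67403 in PSC and 26428 to 45317 in control livers, with 6 of 6 higher in PBC and 1 of 6 in PSC livers. B cell markers, beside Irf8, Ciita and the class II genes, summed to 942 to 1329 in PBC, 179 to 302 in PSC and 433 to 673 in control livers; 1 of 4 tested rose in PBC and 2 of 4 fell in PSC livers, and Pax5 was at 0 in controls 3 and 4. T and NK cell markers, beside Irf4, Runx3 and Ccr7, summed to 2520.2 to 2939 in PBC, 644 to 733 in PSC and 504 to 817 in control livers, with 5 of 7 higher in PBC livers.

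Plasma cell markers, beside Irf4, summed to 10517 to 13377 in PBC, 8523 to 12648 in PSC and 6491 to 12292 in control livers; 2 of 3 tested rose in PBC and 1 of 3 in PSC livers, and Tnfrsf17 was at 0 in control 3. Sdc1, which hepatocytes share, made up 87.7% of this sum in PBC, 92.3% in PSC and 96.5% in control livers, while Jchain averaged 1333 ± 598 in PBC, 762 ± 424 in PSC and 269 ± 142 in control livers and Mzb1 averaged 144 ± 34.8 in PBC, 54.3 ± 8.90 in PSC and 54.5 ± 28.2 in control livers. Neutrophil markers summed to 32276 to 94970.1 in PBC, 8461 to 14963 in PSC and 329 to 6195 in control livers; 4 of 4 rose in PBC and 3 of 4 in PSC livers, with Mpo at 0 in controls 1 to 3 and Ly6g at 0 in control 3. Sinusoidal endothelium, beside Zbtb46, summed to 4809 to 9429 in PBC, 5068 to 8357 in PSC and 7264 to 12318 in control livers, with 0 of 4 called in PBC (unadjusted 1, edgeR 0, DESeq2 0) and 1 of 4 lower in PSC livers. The lectin gene Clec4g made up 91.9% of this sum in PBC, 96.2% in PSC and 95.2% in control livers. Bile duct markers, beside Epcam, Cd24a and Ly6d, summed to 9972 to 13394 in PBC, 53197 to 94318 in PSC and 7505 to 12856 in control livers, with 2 of 4 higher in PBC and 4 of 4 in PSC livers, and Spp1 made up 91.9% of the sum in PBC, 97.0% in PSC and 95.0% in control livers. Lymph node stroma summed to 345 to 2717 in PBC, 188 to 309 in PSC and 162 to 230.5 in control livers. The top value was PBC 8, in which the gene Cxcl13 alone had 2466. Cxcl13 made up 78.9% of this sum in PBC, 7.96% in PSC and 50.2% in control livers. In PBC livers 0 of 3 tested were called (unadjusted 3, edgeR 1, DESeq2 1), and in PSC livers 1 was higher and 1 lower. Mesothelium of the capsule summed to 345 to 1096 in PBC, 233 to 671 in PSC and 232 to 762 in control livers and overlapped between groups, with 0 of 5 called in either model (unadjusted, edgeR and DESeq2 0 in both). Hepatocyte markers summed to 8496360.0 to 12637700.0 in PBC, 5523800.0 to 6649570.0 in PSC and 8348600.0 to 9599610.0 in control livers, with 0 of 4 called in PBC (unadjusted, edgeR and DESeq2 0) and in PSC livers (unadjusted 1, edgeR 2, DESeq2 3), and their abundance matched the label of liver tissue.

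**Figure D4:**
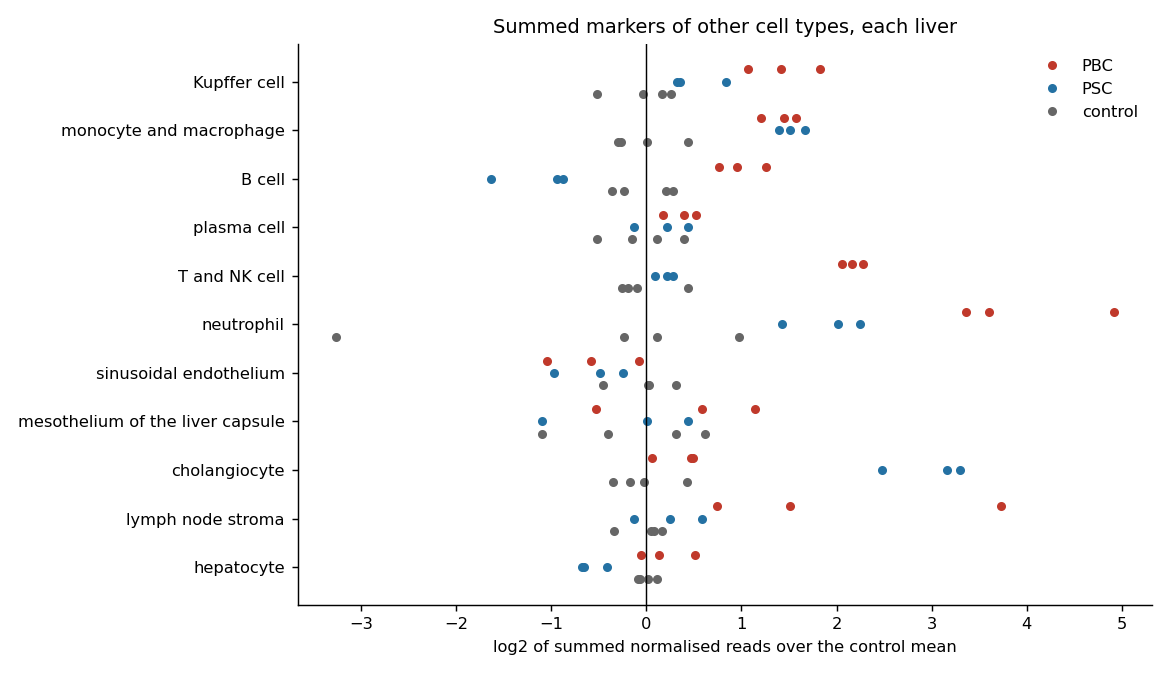
Log2 of the summed normalised reads of markers of other cell types over the mean of the control livers (horizontal axis), 1 point per liver, PBC above PSC above control in each row. T and NK cell sums are highest in PBC livers, bile duct sums are highest in PSC livers, monocyte and macrophage sums are above the controls in both models, and mesothelium overlaps.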

How the data were processed

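Poly(A) RNA of 10 livers (3 PBC, 3 PSC and 4 control, grouped by GEO's labels) was sequenced as stranded, paired reads, per the labels' protocols. The submitters' processing notes name STAR 2.4.0, DESeq2, FastQC, Picard and SAMtools, and the build mm10; the gene models are FASTDB, per the file headers. The deposited signal is the authors' DESeq2-normalised read number for each gene model. No source used here says how reads were counted or whether strand was used. All values were whole multiples of 1 read (0.938 to 2.55 normalised reads; 100% within 0.1 read), so reads were recovered by division. In every library more models had 2 reads than 1, such as 2863 against 613 in PBC 7. Whether both reads of a pair were counted is not given. Read numbers and depths stated here may therefore count 1 pair as 2.

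limma 3.58.1 (R 4.3.3) with an intensity trend was fitted to log2(value + 1) of all 10 libraries, for the 18390 genes that reached 10 in 3 or more libraries, with Benjamini-Hochberg adjustment over all of them and a threshold of 0.05. Fold changes of low genes on this scale differed from those of other methods in either direction. The log2 fold change of Tlr9 in PBC livers was 3.42, against 2.36 with edgeR and 2.37 with DESeq2. That of Cd209g in PSC livers was -3.80, against -4.57 with edgeR and -4.78 with DESeq2. Alternatives were pseudocounts of 10 and 0.1, no filter, a filter of 50, equal totals, TMM scaling, quality weights, a fit of only the compared groups, edgeR 4.0.16 and DESeq2 1.42.0 on the recovered reads, and leaving out each library. The scripts were tested on simulated data. Upstream sequences are from RefSeq (GRCm38.p6), and exon lengths from GENCODE.

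The 8 genes and all lists were chosen with earlier results of these data known. Named besides the 8 were, per list and comparison, up to 4 called genes by smallest adjusted p and any called against the direction of most. The 5 genes most like Cd207, Cd209a and Batf3 were taken by Pearson's r, and a gene among those of Cd207 is not reported here.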

Additional observations from a re-analysis of the deposited data

Results flagged for a closer look

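Among the 4 control livers, 2 values stood far from the others by Dixon's criterion, of 42 genes checked; chance alone gives about 1 in 20. Irf4 had 91.6 normalised reads in control 4, against 30.8 to 36.3 in the other controls. Cd209f had 212 in control 3, against 60.9 to 73.6 in the other controls.

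The effects of the models differed, by the limma test of PBC against PSC livers, for 5 of the other dendritic cell genes. Ly6d differed by a log2 fold change of -4.76 (limma adjusted p = 0.000459), lower in every PBC liver. Klk1 differed by -4.14 (limma adjusted p = 0.0184), Epcam by -2.17 (limma adjusted p = 0.00913) and Cd24a by -1.55 (limma adjusted p = 0.0148), each lower in every PBC liver. Batf2 differed by 1.82 (limma adjusted p = 0.0286), higher in every PBC liver.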

How the results depend on the processing

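No called value changed sign in any setting. Of the values of the 8 genes under alternatives, 456 stayed on their side of the threshold or within the spread, 8 passed the threshold anew, 5 lost it (all Irf8 in PSC livers) and 5 untested values moved by more than the spread. Of 54 calls of the named list genes, 29 were lost in 1 or more settings, 174 of 1074 values in all. Of the counts, 129 stayed within 1.5 times and 51 did not. Of the 5 genes whose direction was not part of the choice, the number called in PSC livers (1) was 2 with a pseudocount of 10, 0 with equal totals, 3 with quality weights and 2 with DESeq2, and 0 to 2 with a library left out; it was 2 without PBC 8 or control 4, and 0 without PSC 11, PSC 14, control 1 or control 2. Of the 8 genes, the number called in PSC livers (2) was 4 with a pseudocount of 10, 1 with equal totals, 5 with quality weights and 4 with DESeq2, and 1 to 4 with a library left out; it was 4 without PBC 8 and 1 without PSC 11, PSC 14, control 1 or control 2. Of 5 genes, 0 were called between PBC and PSC livers with any library left out, and 1 with quality weights or DESeq2. Listed dendritic cell genes called in PSC livers (22) became 43 with quality weights and 13 to 28 with a library left out. Those called in PBC livers (30) became 12 in a fit of only the compared groups and 16 to 30 with a library left out. Those called between the models (5) became 11 with quality weights, 11 with DESeq2 and 1 to 7 with a library left out. Over all genes, 2710 were called in PSC livers, 7303 with quality weights and 962 to 3814 with a library left out. In PBC livers 1828 were called, 1218 with equal totals, 841 in a fit of only the compared groups, 4228 with quality weights and 749 to 3392 with a library left out. Between the models 412 were called, 1359 with quality weights, 1213 with DESeq2 and 101 to 562 with a library left out. The cause of these moves was not tested. The share called higher was 76.5% in PBC livers, and 89.4% in a fit of only the compared groups, 57.4% with quality weights, 64.6% with DESeq2, 53.6% without PBC 8 and 91.3% without PBC 9; in PSC livers it was 56.0%, and 49.2% in a fit of only the compared groups and 73.9% without PSC 14; between the models it was 49.5%, and 36.0% with equal totals. Equal totals moved the median of all genes in PBC livers to -0.12 on the log2 scale, against 0.01 as deposited. The filter of 50 left no value for Cd209a and Flt3. Depth limits Cd209a, Flt3, Siglech and Irf4 most, with 4 to 199 reads per group. No paired analysis was possible because the groups share no replicate numbers.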

Other observations

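The following genes were chosen after their values were seen. Mgl2, a lectin of cDC2 and macrophages, had a pattern like that of Cd209a: it averaged 3.88 ± 4.27 in PBC, 40.3 ± 21.9 in PSC and 12.0 ± 6.32 in control livers, and did not pass the test between PBC and PSC livers (log2 fold change -3.40, SE 0.88, limma adjusted p = 0.0643). Ccl17, a chemokine that dendritic cells make, averaged 15.2 ± 13.2 in PBC, 83.4 ± 52.7 in PSC and 20.1 ± 19.1 in control livers, also without passing (log2 fold change -3.13, SE 1.09, limma adjusted p = 0.152). Cx3cr1, a chemokine receptor of monocytes and some dendritic cells, averaged 58.5 ± 39.5 in PBC, 234 ± 22.6 in PSC and 50.1 ± 9.74 in control livers; it rose in PSC livers (log2 fold change 2.22, SE 0.39, limma adjusted p = 0.00298) and was lower in PBC than in PSC livers (log2 fold change -2.18, SE 0.42, limma adjusted p = 0.0169).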
